A study of Mus musculus with 6 samples.

Results

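The genes described here are 10 core genes of transforming growth factor beta (TGF-beta) signalling, namely Tgfb1, Tgfbr1, Tgfbr2, Smad2, Smad3, Smad4, Smad6, Smad7, Smurf1 and Smurf2, taken from 21887 protein-coding genes. A site was counted for a gene when its summit, the base with the strongest signal of a peak, lay inside the gene or within 50 kb of either end (mouse build mm10). Of 1667 WT regions 5 met this rule, and of 6752 3KR regions 15 did. Smurf1 gave the set its place because it holds the highest scored site that was found in the 3KR list alone, so its scores and its class are given as a description and no test was made on them. The other genes were chosen by name.

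The sites come from ChIP-seq with p53 as the target, in progenitor cells of the basal layer of mouse epidermis, sorted for high alpha-6 integrin and for EpCAM, from mice 8 weeks old. The groups were p53WT (WT) and p533KR (3KR), with 3 libraries each, and Nutlin-3a, which stops MDM2 from degrading p53, was in the digestion medium at 25 µM for both. The name 3KR is known from other work for an allele with lysine-to-arginine changes within the DNA-binding domain that prevent acetylation there; the labels do not spell it out. Each genotype has 1 combined list of summits, so there is no value per library, no spread between animals and no known depth. The lists differ 4.05 times in length, and the summit names of the 3KR list carry the word Doxo, which those of WT do not. Genotype, depth and what that word stands for cannot be told apart. The lists hold no expression values, so the labelled cell type was not checked against its markers.

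In this pathway the ligand TGF-beta 1 binds the receptor TGFBR2, which then activates the receptor kinase TGFBR1. TGFBR1 phosphorylates SMAD2 and SMAD3, and these join SMAD4 and enter the nucleus to regulate genes. SMAD6 and SMAD7 inhibit the pathway, and SMURF1 and SMURF2 are HECT-type ubiquitin ligases that SMAD7 can bring to the receptors. In epidermis, TGF-beta is known as a brake on the division of keratinocytes.

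Sequence could be read for promoters, from the RefSeq windows of 250 bases before to 50 after each start site (assembly GRCm38.p6, which shares its main chromosomes with mm10). Of the 10 genes 7 had such an entry, and Smad2, Smad4 and Smad7 were not analysed for sequence. Among these 7, only Smurf1 had a window that held a summit, from the 3KR list, beside 5.21% of all promoter windows; none of them held a WT summit, beside 0.460%. The window of Exosc5, a neighbour of Tgfb1, also held a 3KR summit. The stretches below lie upstream of the annotated genes and are written 5′ to 3′ on the strand of the gene, with GGGCGG (the core of SP and KLF factor sites) and CCAAT in capitals on either strand. They are shown because they are the sequences under the promoter summits. The Smurf1 stretch is chr5:144965900-144966080 on the minus strand, with the summit at its base 128, and the Exosc5 stretch is chr7:25658903-25659152 on the plus strand, with the summit at its base 185.
Smurf1: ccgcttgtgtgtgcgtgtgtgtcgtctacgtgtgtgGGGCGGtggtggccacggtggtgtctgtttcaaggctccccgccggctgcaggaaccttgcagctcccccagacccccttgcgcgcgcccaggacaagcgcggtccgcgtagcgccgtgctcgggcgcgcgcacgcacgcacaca
Exosc5: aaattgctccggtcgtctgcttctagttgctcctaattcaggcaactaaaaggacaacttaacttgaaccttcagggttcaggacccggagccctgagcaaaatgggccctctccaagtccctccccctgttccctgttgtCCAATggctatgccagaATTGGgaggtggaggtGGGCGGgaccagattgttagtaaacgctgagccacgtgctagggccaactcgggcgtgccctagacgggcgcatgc

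The Smurf1 stretch of 181 bases had a GC content of 70.2% and 23 CpG dinucleotides, and its GGGCGG began at base 37. The Exosc5 stretch of 250 bases had a GC content of 56% and 10 CpG dinucleotides, and its GGGCGG began at base 175, next to the summit. Both windows were searched on both strands for the p53 response element (a pair of half-sites at most 1 base apart, with no mismatch), its half-site, the AP-1 motif TGANTCA and the palindromic SMAD motif GTCTAGAC, and none of these was found in them. Of all 32851 promoter windows, 35.7% held GGGCGG, 37.4% CCAAT, 8.36% a p53 half-site, 7.81% TGANTCA, 0.213% GTCTAGAC and 0.00913% the full p53 element. In the other windows of the set, all without a summit, the p53, AP-1 and SMAD motifs gave 2 matches. The window of Tgfbr2 held a p53 half-site, shown in capitals in its upstream stretch chr9:116175364-116175613 (minus strand). The window of Smad6 held the SMAD palindrome across its start site, shown in capitals in the 30 bases of chr9:64022045-64022074 (minus strand).
Tgfbr2: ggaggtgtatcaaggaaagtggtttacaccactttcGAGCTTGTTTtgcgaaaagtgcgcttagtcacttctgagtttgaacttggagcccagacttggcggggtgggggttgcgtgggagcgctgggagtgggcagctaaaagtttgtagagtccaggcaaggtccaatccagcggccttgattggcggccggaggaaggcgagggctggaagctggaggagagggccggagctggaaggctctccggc
Smad6: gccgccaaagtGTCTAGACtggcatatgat

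Neither of these motifs lay under a summit, and the windows of Tgfbr2 and Smad6 had none in either list. A match is a string of letters and not a bound site.

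Regions of both lists were counted at the 10 genes by the 50 kb rule. In WT, 4 of the 10 genes had a region, Tgfb1, Smad2, Smad3 and Smad6, beside 11.6% of all protein-coding genes by the same rule. In 3KR, 5 of the 10 had one, Tgfb1, Tgfbr2, Smad3, Smad7 and Smurf1, beside 42.2% of all protein-coding genes. Tgfb1 and Smad3 were in both groups, an overlap for which no share over all genes is given here. A site common to the lists was found at 1 gene, Smad3 (7.22% of all genes), while 3 genes had a WT-only region (5.55%) and 5 a 3KR-only region (39.1%). Inside the gene itself, a WT region was found for 1 of the 10, Smad6 (2.92% of all genes), and a 3KR region for 3, Tgfbr2, Smad3 and Smurf1 (11.1%). Tgfbr1, Smad4 and Smurf2 had no region of either list, beside 56.1% of all genes. At least 3 3KR regions were found at 3 of the 10, Tgfb1, Smad3 and Smurf1, beside 6.87% of all genes. The median number of 3KR regions per gene was 0.5 for the 10 genes and 0 for all genes, and the median for WT was 0 in both. The genes were named with these lists known, and nothing is read from their counts.

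**Figure D1:**
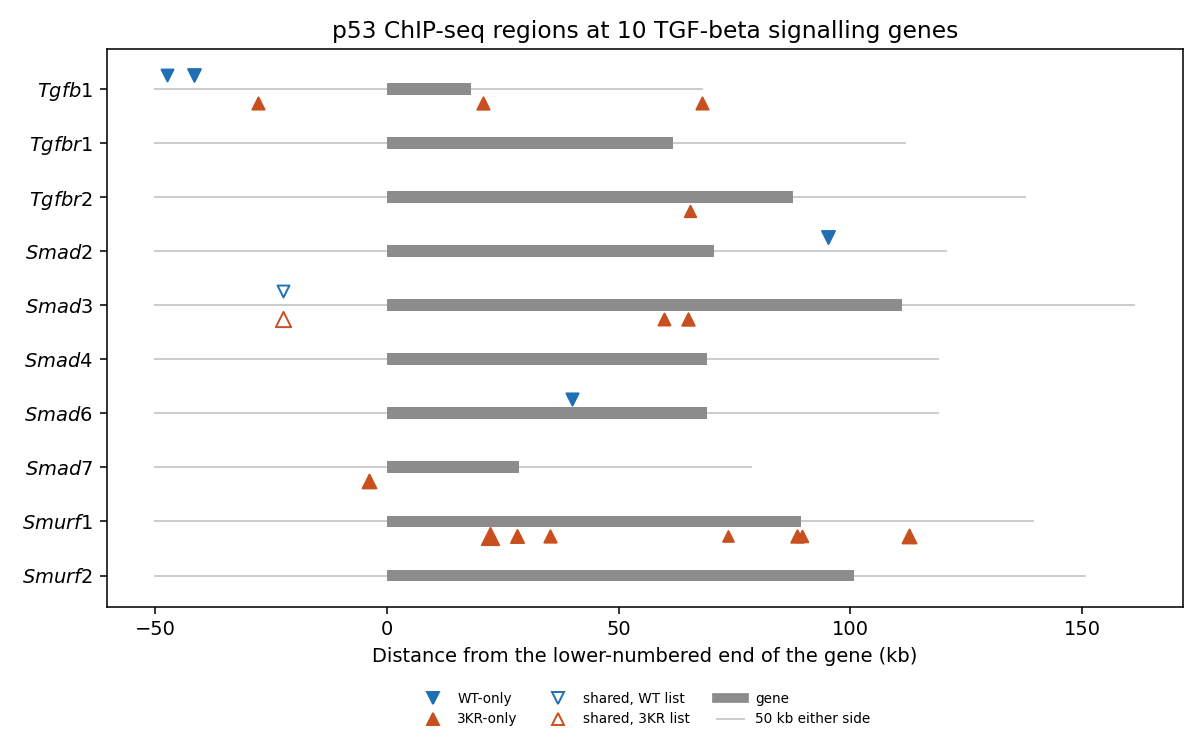
Map of each of the 10 genes to scale, with distance from the lower-numbered end of the gene in kb on the horizontal axis. Down-pointing triangles are WT regions and up-pointing ones 3KR regions, larger for higher scores; open triangles mark the site found in both lists. Smurf1 carries 7 of the 15 3KR regions, and Tgfbr1, Smad4 and Smurf2 carry no region of either list.

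Smurf1 (chromosome 5, 144876495 to 144965899, 89.4 kb, read from the higher to the lower coordinate) held 7 of the 15 3KR regions and no WT region. The score of a summit is the value from the authors' peak caller, a −log10 of a p or q value, and is compared here only within a list. The highest scored summit, at 144898638, had a score of 144 and rank 22 of 6752. It lay inside the gene, 67.2 kb downstream of the start site and 22.1 kb from the far end. The summits ranked just above and below it scored 148 and 140. All 21 regions ranked above it were in both lists, and the next 3KR-only region, which is at another gene, scored 131 at rank 28. These values are those by which the gene was chosen.

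The other 6 regions at Smurf1 scored much lower and took no part in that choice. Downstream of the start site, summits at 144904554 and 144911715 lay 61.3 and 54.1 kb away, with scores of 10.7 and 7.48. Together with the highest one they formed a group in which neighbours were 5.92 and 7.16 kb apart, and a gap of 38.4 kb followed. A summit at 144950116, 15.7 kb downstream of the start site, had the lowest score of the 7, at 3.54 and rank 6639. Close to the start site, summits at 144965039 (score 8.10) and 144965953 (score 5.13) lay 791 bp downstream and 123 bp upstream of it, on either side. The seventh summit, at 144989082, scored 17.4 and lay 23.2 kb upstream of the start site, inside Kpna7, a gene of the importin alpha family, which is nearer to it than Smurf1. Of the 7 summits, 3 scored above the median of the 3KR list, 10.1. The lower 2 of these, in Kpna7 and beside the highest summit, took ranks 1455 and 3028.

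**Figure D2:**
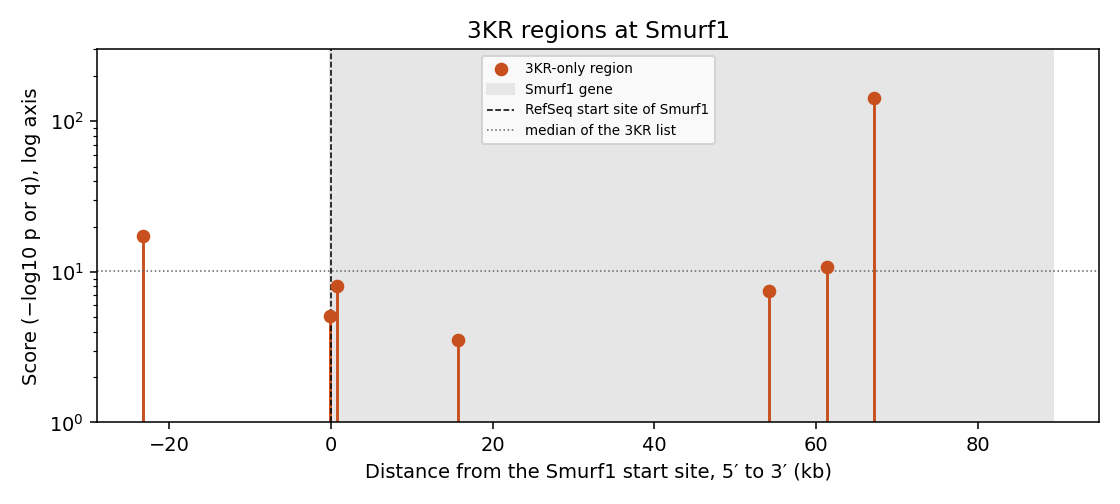
Score of each 3KR region at Smurf1 (−log10 p or q, log axis) against its distance from the start site in kb, drawn in the direction of transcription, with the gene shaded. A single summit at 67.2 kb reaches 144, while the other 6 lie between 3.54 and 17.4, around the list median of 10.1 (dotted).

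The nearest WT region to the 7 summits was between 608 and 699 kb away, so no WT summit was close to any of them. Inside Smurf1 itself there were 5 3KR summits. At least 5 inside were found for 31 of 21887 protein-coding genes (0.142%), and at least 7 inside or within 50 kb for 54 genes (0.247%), counts in which neighbouring genes can share summits. For Smurf1 both numbers include the summit by which it was chosen. Gene length was not allowed for, and nothing is read from these shares. The highest summit lay 1.82 kb from the annotated hairpin of Mir7039, a microRNA gene within Smurf1 on the same strand (chr5:144896732-144896816). Its mature forms, shown because this gene lies close to that summit, are given 5′ to 3′ with the seed (bases 2 to 8) in capitals, and their seeds differ.
mmu-miR-7039-5p: aGAGGGAUggagagcaucgcgu
mmu-miR-7039-3p: cCUGUUCUgcccucccuuccag

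The genes whose pattern was most like that of Smurf1 were sought over all protein-coding genes by the numbers of shared, WT-only and 3KR-only regions inside or within 50 kb. There were 7 genes with the same numbers, that is 7 3KR-only regions and no other. Ordered by the rank of their highest summit, the 5 nearest to Smurf1 were Nup93, a nuclear pore gene, with a highest score of 80.6 (rank 80), Errfi1, which encodes an inhibitor of the EGF receptor, with 49.7 (rank 198), Rbms1, an RNA-binding protein gene, with 36.7 (rank 365), Stk11, a kinase gene, with 31.0 (rank 536), and Ankrd55 with 30.1 (rank 543). The likeness is one of counts in 2 lists only.

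Smurf2, which encodes the other ligase (chromosome 11, 106820061 to 106920747), had no region in either list. The nearest 3KR summit lay 92.0 kb outside the gene, at 107012776, with a score of 41.6 (rank 284), and the nearest WT summit 107 kb outside, at 107027399, with a score of 30.5 (rank 136). Both were nearest to another gene, 1810010H24Rik. The 2 ligase genes are of like length, 89.4 and 101 kb, and their regions within 50 kb numbered 7 and 0. The 7 include the summit by which Smurf1 was chosen and the summit inside Kpna7, so nothing is read from this difference.

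Tgfb1, the ligand gene (chromosome 7, 25687002 to 25705077), had 2 WT and 3 3KR regions, and none of them lay inside it. The WT summits at 25639597 (score 6.01) and 25645220 (score 9.39) were 47.4 and 41.8 kb upstream of Tgfb1, inside Bckdha, which encodes a subunit of the enzyme complex that breaks down branched-chain keto acids. The 3KR summit at 25659087 (score 6.87) lay 66 bp upstream of the start site of Exosc5, a subunit gene of the RNA exosome. The summit at 25755045, with the same score, lay 286 bp upstream of a start site of Hnrnpul1, an RNA-binding protein gene, and 49.97 kb from Tgfb1, just inside the distance allowed. Only the 3KR summit at 25707797 (score 7.48, rank 4648) had Tgfb1 as its nearest gene, 2.72 kb beyond the end of the gene. No WT and 3KR summit of this window lay closer to each other than 13.9 kb.

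Of the receptor genes, Tgfbr1 (chromosome 4, 47353222 to 47414926) had no region, and Tgfbr2 (chromosome 9, 116087695 to 116175363) had 1, in 3KR. That summit, at 116153039, lay inside the gene 22.3 kb downstream of the start site and scored 4.58 (rank 6270), near the bottom of its list. The nearest WT region to it was 770 kb away. Just outside the distance allowed for Tgfbr1, both lists had a summit 59.6 kb from the gene, at 47474479 in WT (score 6.83) and 47474519 in 3KR (score 19.7), nearest to Alg2 and Sec61b.

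Among the Smad genes the only site in both lists lay near Smad3 (chromosome 9, 63646766 to 63757994). Its summits were at 63624381 in WT and 63624382 in 3KR, 1 bp apart, 22.4 kb beyond the downstream end of Smad3 and inside Aagab, a gene for a protein that binds adaptor subunits of membrane traffic. The site ranked 1323 of 1667 in WT, with a score of 6.01, and 337 of 6752 in 3KR, with a score of 38.6. It was thus in the lower part of one list and near the top of the other. Inside Smad3 there were 2 further summits, in 3KR only, at 63706529 and 63711731. They scored 6.27 and 8.10 and lay 51.5 and 46.3 kb downstream of the start site. Smad2, the gene of the second receptor-activated Smad (chromosome 18, 76241090 to 76311748), had 1 summit, in WT only, at 76336160. It lay 24.4 kb outside the gene with a score of 10.3, the highest of the 5 WT regions, and the nearest 3KR region was 257 kb away. Smad4 (chromosome 18, 73634790 to 73703791), which encodes the common partner, had none in either list, and the nearest summits outside its window were 564 kb away in 3KR and 1105 kb in WT.

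The inhibitory Smads differed in the list that held their summit. Smad6 (chromosome 9, 63953076 to 64022085) had 1 WT summit inside the gene, at 63992889, 29.2 kb downstream of the start site with a score of 6.83 (rank 1176). It had no 3KR region, and the nearest 3KR summit to the gene lay 62.4 kb outside, with a score of 5.69. Smad7 (chromosome 18, 75367365 to 75395935) had 1 3KR summit, at 75363439, which lay 3.93 kb outside the gene and scored 16.6 (rank 1570). That summit lay inside Gm20544, an annotated long non-coding RNA gene. Smad7 had no WT region, and the nearest one to the gene was 559 kb outside. A difference of 1 summit between lists of unequal length was not tested.

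Within their lists the regions at these genes were mostly of low score. The 5 WT regions scored between 6.01 and 10.3 with a median of 6.83, against 9.42 for the WT list, and 1 of the 5 was above that value. The 15 3KR regions scored between 3.54 and 144 with a median of 7.48, against 10.1 for the 3KR list, and 5 of the 15 were above it. Without Smurf1, the 8 remaining 3KR regions had a median of 7.17 and a highest score of 38.6, that of the site near Smad3. Only the highest Smurf1 summit stood among the first 100 of its list.

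**Figure D3:**
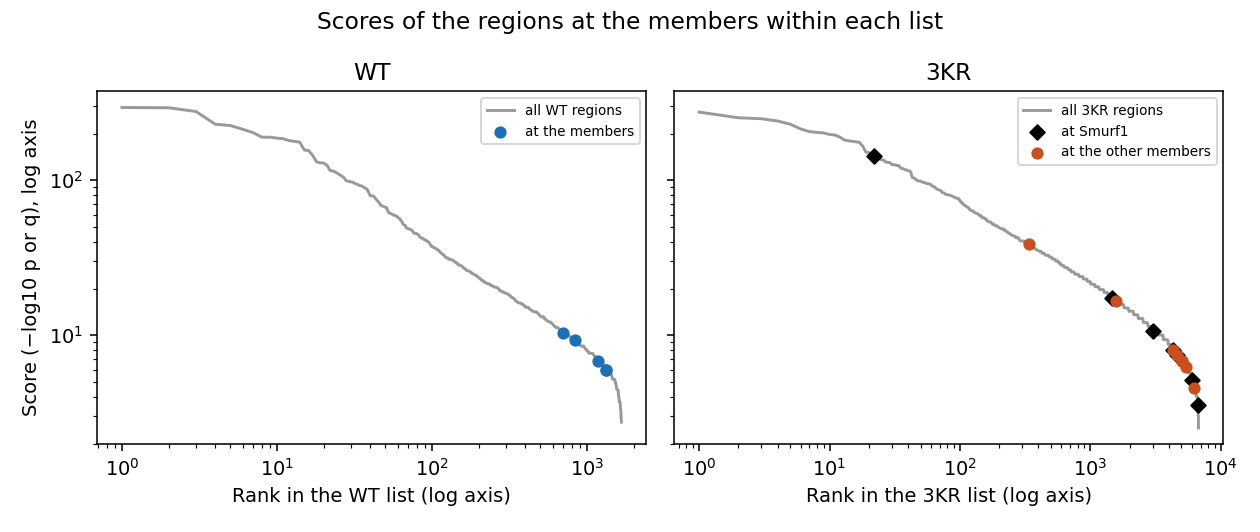
Score (−log10 p or q) against rank for all regions of the WT list (left) and the 3KR list (right), both axes logarithmic, with the regions at the 10 genes marked and those at Smurf1 as black diamonds. The 5 WT regions, 2 of them with the same rank, lie between ranks 696 and 1323, and of the 3KR regions only the Smurf1 summit at rank 22 and the Smad3 site at rank 337 lie far to the left.

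Of the 5 WT regions 1 was shared with 3KR, or 20% (95% Wilson interval 3.62 to 62.4, counting error only), beside 53.03% of all WT regions. Of the 15 3KR regions 1 was shared, or 6.67%, beside 13.05% of all 3KR regions. The class of the highest Smurf1 region was fixed by the choice of the gene, so nothing is read from this share; without that region, a count added after seeing the data, it was 1 of 14 (7.14%). The other measure, which the choice of genes did not use, was the place of the summits. Of the 15 3KR regions, 3 were at most 1 kb away from an annotated end of any protein-coding gene, those on either side of the Smurf1 start site and that at Exosc5, or 20% (7.05 to 45.2), beside 34.5% of the 3KR regions assigned to any protein-coding gene. Measured from RefSeq start sites, a measure chosen after seeing the data, the summit at Hnrnpul1 was added and the count was 4 of 14 (28.6%, 11.7 to 54.6), beside 34.1%. None of the 5 WT regions was within 1 kb of a gene end, and the closest was 9.75 kb away. The intervals count each region as independent, but 7 of the 15 3KR regions were at Smurf1. The summits on either side of its start site lay only 914 bp apart. The genes and measures were also chosen with earlier results known. The intervals therefore cannot decide whether a share differs from the one set beside it, and nothing is read from them.

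The wider pathway was described with 72 other genes in 9 roles, all of which were found in the gene table. Of these, 18 (25%) had a WT region and 48 (66.7%) a 3KR region, beside the 11.6% and 42.2% of all protein-coding genes given above. Both lists had a region at 16 genes and WT alone at 2, counts for which no share over all genes is given here. Neither list had one at 22, beside 56.1% of all protein-coding genes. The median number of 3KR regions per gene was 1, against 0 over all genes. No enrichment test was made, because the list was written with results of these data known.

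The plot of shares by distance shows how far these counts rest on the 50 kb rule. With 10 kb, 29 of the 72 pathway genes and 5 of the 10 core genes had a 3KR region, beside 23.4% of all genes, and 8 of 72 and 1 of 10 had a WT region, beside 5.04%. With 100 kb, 54 of 72 and 8 of 10 had a 3KR region, beside 55.7%, and 21 of 72 and 5 of 10 a WT region, beside 18.4%.

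**Figure D4:**
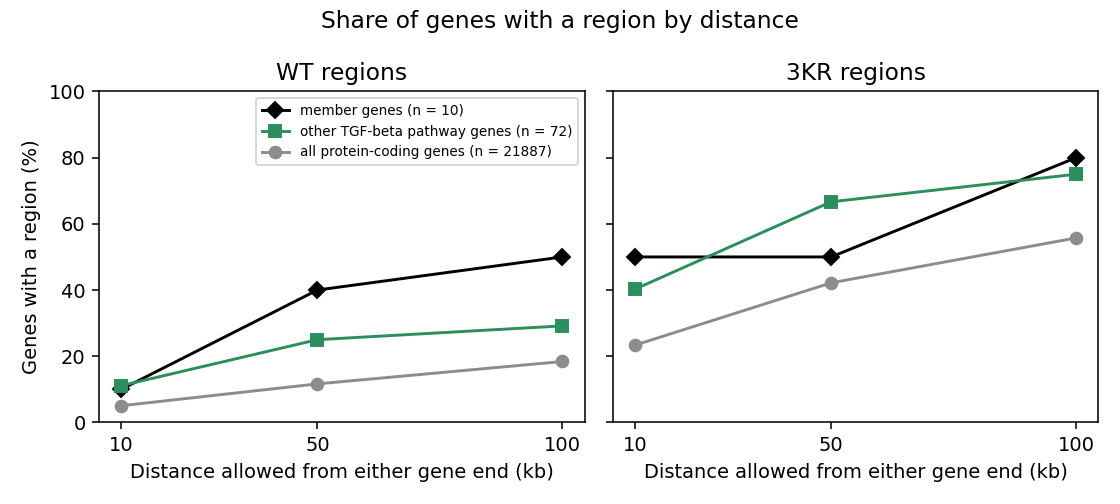
Percentage of genes with a region inside or within 10, 50 or 100 kb of either end, for WT (left) and 3KR (right), in the 10 genes (black), 72 other pathway genes (green) and all 21887 protein-coding genes (grey). The share rises with distance in all 3 sets, except that the 3KR count of the 10 genes is 5 at both 10 and 50 kb.

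Beside the counts of every role, 42.2% of all protein-coding genes had a 3KR region and 11.6% a WT region by the 50 kb rule. Both further ligand genes had 3KR regions and no WT region. Tgfb2 had 4, of which the highest, at 186698420 on chromosome 1, scored 13.6 and lay inside the gene. Tgfb3 had 1, 44.8 kb outside, with a score of 5.13. Of 11 genes of latency and activation, the proteins that hold TGF-beta inactive or release it, 9 had a 3KR region and 3 a WT region. Ltbp1, which encodes a latent TGF-beta binding protein, had 5 3KR regions, all inside the gene and none scored above 14.3. Furin, the gene of a protease that cleaves the TGF-beta precursor, had the highest scored region of this role, 46.5 in 3KR (rank 231), shared with WT (score 10.7). It lay 49.3 kb from Furin and was nearest to Unc45a. Ltbp4 had a WT-only summit inside the gene (score 5.002) and a 3KR-only one 21.9 kb outside (score 14.3).

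Of 11 receptor and co-receptor genes, 7 had a 3KR region and 5 a WT region, beside 42.2% and 11.6% of all genes. The co-receptor gene Tgfbr3 had 6 3KR regions with scores between 6.27 and 17.4, the most of the 72 genes, and no WT region. A shared site between the type I receptor genes Acvrl1 and Acvr1b, counted for both, scored 24.6 in WT (rank 188) and 43.6 in 3KR (rank 260). Its summits were 12 bp apart, at 101161754 and 101161742 on chromosome 15. The BMP receptor genes Bmpr1a and Bmpr1b each had a shared site, with WT scores of 32.9 and 20.7 and 3KR scores of 35.7 and 28.7. The WT summit of the Bmpr1a site lay 31.8 kb outside that gene, and the site was nearest to another gene, Mmrn2. At Bmpr1b the summit was at the same base in both lists, 142191810 on chromosome 3, 22.2 kb outside the gene. Bmpr1a had in addition a WT-only summit 1.29 kb outside the gene (score 11.6). Eng, the endoglin gene, had a WT-only summit inside the gene (score 10.3) and no 3KR region.

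The BMP-pathway Smad genes all had a 3KR region, beside 42.2% of all genes. Smad1 had a WT-only summit 13.2 kb away (score 12.0) and a 3KR-only one 43.3 kb away (score 11.4). Smad5 had a shared site 20.4 kb away, with scores of 5.22 in WT and 7.48 in 3KR, which also counted for Tgfbi, and a 3KR-only summit 51 bp upstream of its start site (score 4.58). Among the anchors and the phosphatase only Zfyve9, which encodes the receptor anchor SARA, had a region, in 3KR, 17.6 kb outside the gene (score 16.6).

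Of 10 other ligases and deubiquitinases, 7 had a 3KR region and 2 a WT region, beside 42.2% and 11.6% of all genes. Nedd4l, a HECT-type ligase gene related to Smurf1, had a WT-only summit inside the gene at 65104049 on chromosome 18, with a score of 21.5 (rank 228), and no 3KR region. Usp4, a deubiquitinase gene, had the highest 3KR score of this role, 32.8, at a summit 40.5 kb away that was nearest to Tcta. A shared site 7.43 kb from Usp4 in WT lay at the start site of Gpx1, a glutathione peroxidase gene. At Rnf111, whose product degrades inhibitors of the pathway, a 3KR summit lay 66 bp upstream of the start site (score 5.13).

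Co-repressor and decoy genes had a 3KR region in 7 of 8 cases and a WT region in 2, beside 42.2% and 11.6% of all genes. The highest score was that of Skil, the gene of the co-repressor SnoN, 16.6 at 0.27 kb outside the gene. Tgif1 and Pmepa1 had both lists at different positions, with WT-only scores of 6.75 and 6.42 and 3KR-only scores of 10.5 and 15.8. Activin and BMP ligands and their antagonists had a 3KR region in 4 of 12 cases and a WT region in 2, beside the same shares. Among them Fstl3, the gene of a secreted activin antagonist, had the highest 3KR score of all 72 genes, 57.2 (rank 151), at a shared site inside the gene whose WT score was 23.8 (rank 197). Inhbb had a 3KR-only summit inside the gene (score 14.3) and a WT-only one 29.0 kb outside (score 8.54).

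Of 12 transcription partners and responding genes, 8 had a 3KR region and 2 a WT region, beside 42.2% and 11.6% of all genes. Id3, a SMAD-responsive inhibitor of helix-loop-helix factors, had 4 3KR-only regions, one of them 130 bp upstream of the start site, and the highest scored 33.8 (rank 427) at 9.29 kb. Id2 had a shared site 14.4 kb upstream of its start site, with scores of 11.8 in WT and 12.1 in 3KR. Of the 86 3KR regions at the 72 genes, 3 scored above 40. In the whole 3KR list a score of 41.6 had rank 284 of 6752, so such scores were not particular to these genes. Nothing is read from this count.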

How the data were processed

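ChIP-seq for p53 was done in 6 libraries, 3 WT and 3 3KR by their titles. BWA, MACS2 and the mm10 build are named in the submitters' processing notes, without versions. The sources used here do not give how libraries were combined, or the control and threshold of the calls. The deposited value of each summit, from the authors' peak caller, is read as a −log10 p or q value; which of the 2 is not stated, and depth is unknown. All names of the WT list carry the run label WT_1 and all of the 3KR list 3KR_Doxo, so it was not possible to tell whether each rests on 3 libraries.

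Summits were widened by 100 bp either side and overlapping windows of a list merged, keeping the highest score, which left 1667 WT and 6752 3KR regions of 1668 and 6753 summits. Regions with summits at most 200 bp apart were called shared. Genes came from a RefSeq table of GRCm38.p6, which gives no exons, and start sites and promoters from a RefSeq promoter table of the same assembly, without chromosome 18. Motifs were searched on both strands. The motifs GGGCGG and CCAAT, and the p53 half-site alone, were added after seeing the data. Shares carry 95% Wilson intervals (statsmodels 0.14.6, Python 3.11.15). No test was made: the genes, the 72 pathway genes and the measures were chosen with earlier results of these data known. The text names all 10 genes with every region, the 5 genes most like Smurf1, pathway genes with a WT region and the highest scored 3KR gene of each role; Tgfb3, Ltbp1, Tgfbr3 and Rnf111 were named after their values were seen. One pathway gene with a WT region is counted but not reported here. Assignment and overlap were tested on simulated lists.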

Additional observations from a re-analysis of the deposited data

How the results depend on the processing

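Of the 10 genes, 4 had a WT region at 50 kb, but 1 with 10 kb, 2 when a summit counted only for its nearest gene and 1 in the top 50% by score. For 3KR the count was 5, but 8 with 100 kb, 3 in the top 50% and 3 with the list shortened to the WT length. The counts of the 72 pathway genes went from 18 in WT to 8 with 10 kb and 11 in the top 50%. In 3KR they went from 48 to 29 with 10 kb, 31 by nearest gene and 14 with the shortened list. Shares of all genes are given above for 10 and 100 kb, but not for the other settings. A stricter setting can only lower the count of any gene set, so nothing is read from these falls. The shared site near Smad3 is beyond 10 kb and its WT score is below the median of its list. The share of WT and of 3KR regions that were shared was thus 0% with 10 kb and in the top 50%. For WT this was 0 of 1 region in both settings, and for 3KR 0 of 11 with 10 kb and 0 of 5 in the top 50%. The share of 3KR regions at gene ends was 0% in the top 50% (0 of 5) and in the shortened list (0 of 4). The 3 summits at gene ends scored between 5.13 and 8.10. Of the 38 alternative values, 21 stayed within 1.5 times a count or within the interval of a share. All 7 results went beyond these limits under some setting. The intervals are wide, and the share at gene ends, 20%, was 40% with 5 kb and still counted as unmoved. No paired analysis was possible because each genotype has 1 combined list and no values per library, and for the same reason no library could be left out. Depth and the spread between animals were not available here and limit every statement on a site missing from 1 list.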

Other observations

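Among RefSeq promoter windows of all genes, 1712 (5.21%) held a 3KR summit and 151 (0.460%) a WT summit. GGGCGG was in 72.4% of the windows with a 3KR summit and in 60.9% of those with a WT summit, against 35.7% of all windows. The median GC content was 62.7%, 62% and 52.7% in that order. The p53 half-site was in 7.01% of the windows with a 3KR summit, 15.9% of those with a WT summit and 8.36% of all windows. These shares are descriptions; windows of neighbouring start sites overlap, and what sets them was not tested.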
